A study of Mus musculus with 3 samples.

Results

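The cells described here were microglia of healthy mouse brain with less RNA of 6 inflammatory cytokines than the rest of their cluster. They were 985 cells out of 3350 cells whose origin in brain was clear. They were taken from 1 cluster of the authors' own clustering of brain cells, numbered 1, which held 1232 clear cells. In every cell of that cluster the corrected counts of Ccl2, Ccl3, Ccl4, Ccl12, Tnf and Il1a were summed and divided by the cell's total, and the 80% of cells with the lowest values were kept. The members were therefore chosen by the measured level of these 6 genes. Their low cytokine RNA, against the rest of the cluster, is part of the definition. A clear cell had a barcode that occurred in the brain table alone and drew at least 0.5 of its hashtag counts from the brain hashtags. Of the 5208 deposited brain cells, 1726 had a barcode that also stood in a blood table of the same library, which is why this filter was applied.

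The study pooled 8 mouse samples of brain and blood in a single droplet library, after staining each with 35 barcoded antibodies and with a hashtag antibody of its own. Brain came from healthy female mice aged 2 to 3 months on a C57Bl/6 background. One hemisphere was taken after perfusion with saline, digested and enriched for immune cells on Percoll. The groups used here were 2 brain samples of CCR2+/- mice, which lack 1 copy of the chemokine receptor gene Ccr2, and 2 of CCR2-/- mice, which lack both copies. The CCR2+/- brains served as the controls, so no sample with 2 intact Ccr2 alleles entered the comparison. The labels do not say whether the hashtags of a genotype came from separate animals, so all p-values measure only the spread between these samples. In each genotype a sample is known solely by its hashtag, and the tags are shown because every comparison by sample rests on reading them apart. The capitals mark the whole tag, and any pair of these 4 tags differs in 11 to 13 of 15 bases:
M-HTO-1, CCR2+/- sample 1: ACCCACCAGTAAGAC
M-HTO-2, CCR2+/- sample 2: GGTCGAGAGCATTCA
M-HTO-3, CCR2-/- sample 1: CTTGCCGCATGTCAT
M-HTO-4, CCR2-/- sample 2: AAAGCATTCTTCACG
The antibody gates used further on rest on the tags of CD45 and CD11b, surface proteins that separate microglia from blood-derived leukocytes:
CD45: TGGCTATGGAGCAGA
CD11b: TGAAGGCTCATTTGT

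Microglia, the macrophages that live in the brain parenchyma, arise from yolk sac progenitors, renew themselves locally and depend on the receptor Csf1r. In healthy tissue they carry a set of genes maintained by TGF-beta signalling, among them Tmem119, the ADP receptor P2ry12 and the fractalkine receptor Cx3cr1, and they show low surface CD45. Taking tissue apart can itself induce immediate early genes, heat shock genes and cytokines in microglia. Ccr2 is a receptor of monocytes that guides them out of bone marrow and into inflamed tissue, and microglia are known to lack it.

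Members numbered 206 and 267 in the CCR2+/- samples and 180 and 332 in the CCR2-/- samples. Median raw depth was 9178.5 and 9540 UMIs per cell in CCR2+/- and 9784.5 and 11109 in CCR2-/- members, so depth did not overlap between the genotypes. The summed corrected counts of the members ran from 1363535 to 2546271 per sample, and the median number of genes per cell from 2952.5 to 3072.5. The median share of hashtag counts from the 4 brain hashtags together ran from 89.9% to 91.9%. The share from the assigned tag alone was not measured. The depth of the members lay far above that of cluster 0, the largest other cluster, whose median was 1563 UMIs.

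The members carried high levels of the microglia markers. In these levels, given throughout as corrected counts per 10000 in the summed cells of a class, Tmem119 stood at 10.7 and 10.7 in the CCR2+/- samples and at 10.3 and 10.5 in the CCR2-/- samples. P2ry12 stood at 19.5, 20.4, 19.1 and 20.7 in the same order, and Cx3cr1 at 35.2, 39.3, 37.3 and 38.2. P2ry12 and Cx3cr1 overlapped between the genotypes, and Tmem119 was lower by under 1 per 10000 in both CCR2-/- samples. A count of Tmem119 was found in 99.6% of members, of P2ry12 in 99.9% and of Cx3cr1 in 100%. All 10 genes of the microglia marker list were above 1 per 10000, with a summed level of 214 to 230 per sample.

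Most marker lists of other cell types were low in the members. The list of border-associated macrophages summed to 0.31 per 10000, against 19.2 in cluster 3, and its mannose receptor Mrc1 reached 0.13. Lists of T cells, NK cells and endothelial cells summed to 0.18, 0.14 and 0.48. Neutrophil genes summed to 6.87, led by S100a9 at 2.62, against 3792 in cluster 2, and B cell genes to 3.81, led by Ighm at 2.17, against 258 in cluster 5. Dendritic cell genes summed to 12.5, of which Siglech, a gene microglia also express, made up 12.1, against 79.3 in cluster 3. Choroid and ependymal genes summed to 4.23, of which Ttr made up 4.01, against 3399 in cluster 8. Red cell and platelet genes summed to 1.26 and 4.68 in the CCR2+/- samples and to 1.35 and 6.70 in the CCR2-/- samples. They were high in sample 2 of both genotypes, as was the share of members with high surface CD45 given next, and the part of either in the results was not tested beyond the fit without CD45-high cells.

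The authors' antibody gates placed 952 of the 985 members (96.6%, exact 95% interval 95.3 to 97.7%) in the CD45-low CD11b-positive gate. That gate also held 75.9% of cluster 8, 34.0% of cluster 7 and 31.2% of cluster 6, so it does not mark microglia by itself. The other 33 were gated CD45-high, and 32 of these were gated as Ly6C-low myeloid cells and 1 as a T cell. They made up 1.46% and 7.12% of members in the CCR2+/- samples and 1.11% and 2.71% in the CCR2-/- samples. The label of microglia thus rests on the marker RNA together with the gate.

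Set against the other brain clusters, as a description with no test because the clusters were built from these genes, the members stood far above them in microglia genes. The ratio to the mean level of the other 8 clusters was 35.2 for Slc2a5, a fructose transporter, 25.7 for Lrrc3, 19.9 for Crybb1, a crystallin, and 18.0 for Gpr84, a receptor for medium-chain fatty acids. It was 15.6 for Tmem119, 15.3 for P2ry12, 15.1 for the lysophosphatidylserine receptor Gpr34 and for the protease inhibitor Cst3, and 14.5 for Olfml3. Csf1r stood at 29.8 in members, 25.2 in the other cells of cluster 1, 8.30 in cluster 3 and 7.69 in cluster 0.

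Cluster 0 carried the same microglia markers at a lower level. The summed level of Tmem119, P2ry12 and Cx3cr1 in the members was 3.52 times that in cluster 0, and 3.47, 3.53, 3.95 and 3.27 times in the samples taken one by one. Of cluster 0 cells, 95.8% also fell in the CD45-low gate. Immediate early and dissociation genes, by contrast, summed to 743 per 10000 in members, 741 in the other cells of cluster 1 and 763 in cluster 0. The deposited counts had been corrected for depth by the authors, which can assign counts to shallow cells, and the part of depth in these ratios was not tested.

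**Figure D1:**
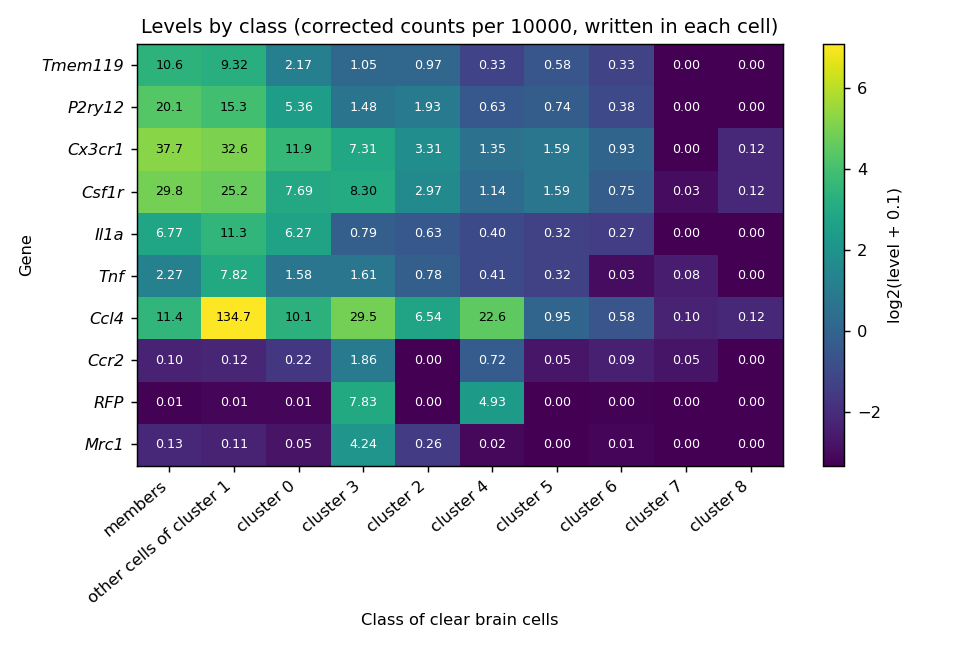
Level of 10 genes in the members and in the other classes of clear brain cells, printed in each cell as corrected counts per 10000, with colour on a log2 scale after adding 0.1. The members and the other cells of cluster 1 share the high microglia genes, while Ccr2, the reporter transcript RFP and Mrc1 are high in cluster 3. In cluster 4 a count of RFP was found in 64.1% of cells and of Ccr2 in 23.4%.

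The 6 genes that chose the members differed between the cells on either side of the boundary by construction. Their summed level had a median of 22.9 per 10000 in members and 193 in the other 247 cells of cluster 1. The boundary lay at 111.063, between a highest member of 110.87 and a lowest non-member of 111.111, and the highest cell of the cluster reached 1110.06. Within 10% of the boundary lay 48 cells, 31 of them members, so the members are a range of a continuous score and not a separate type. A further 18 members had no count of any of the 6 genes. Summed over cells, the 6 genes stood at 32.5 in members, 231 in the other cells of cluster 1, 59.5 in cluster 3 and 27.5 in cluster 0. They stood at 27.7 in cluster 4, 11.7 in cluster 2, 2.81 in cluster 5, 1.36 in cluster 6, 0.257 in cluster 7 and 0.201 in cluster 8. The members were thus low against the rest of their cluster and against cluster 3, and not against the other clusters.

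The median score was higher in both CCR2-/- samples, as a description with no test. Over all clear cells of cluster 1, where the score had removed nothing, its median was 31.7 and 24.5 in the CCR2+/- samples and 38.3 and 38.9 in the CCR2-/- samples. Among members the medians were 16.9, 18.2, 24.5 and 28.3 in the same order. At the boundary itself the genotypes were mixed, and members made up 76.6% and 83.7% of cluster 1 in CCR2+/- and 75% and 82.2% in CCR2-/- samples.

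**Figure D2:**
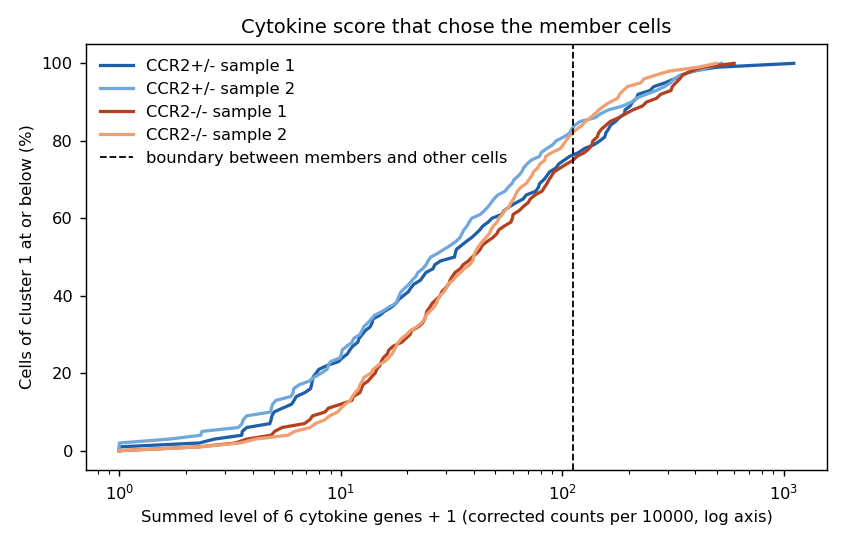
Cumulative share of clear cluster 1 cells (vertical axis, percent) at or below each summed level of the 6 cytokine genes (horizontal axis, corrected counts per 10000 plus 1, log axis), 1 line per sample. The dashed line is the boundary at 111.063, and the CCR2-/- lines run to the right of the CCR2+/- lines over the lower part of the score.

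The 6 genes themselves are described here by their levels in members, since the score trimmed them. Il1a, which encodes interleukin 1 alpha, stood at 3.73 and 5.42 in CCR2+/- and at 8.53 and 8.73 in CCR2-/- members. Tnf stood at 1.47 and 2.28 against 2.83 and 2.46, and the chemokine gene Ccl12 at 2.86 and 3.51 against 4.47 and 4.22. These 3 genes were higher in both CCR2-/- samples. Ccl4 stood at 9.55, 10.8, 11.3 and 13, Ccl3 at 10.5, 6.97, 5.79 and 7.18, and Ccl2, a ligand of the deleted receptor, at 0.863, 0.44, 1.02 and 0.727. Ccl3 and Ccl2 overlapped between the genotypes. In the whole of cluster 1, before the score was applied, Il1a was 0.80 higher in CCR2-/- on the log2 scale (limma adjusted p = 0.00122), whereas Tnf differed by 0.13 (limma adjusted p = 0.778) and Ccl12 by 0.42 (limma adjusted p = 0.0989).

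The members' share of brain cells did not separate the genotypes. They made up 22.7% and 36.6% of clear cells in the CCR2+/- samples and 26.7% and 32.0% in the CCR2-/- samples. The means were 29.6% ± 9.82 (SD, n = 2) and 29.3% ± 3.78 (SD, n = 2), a difference of -0.290 points with p = 1 in a two-sided exact permutation test. With 2 against 2 samples there are 6 regroupings, and this design cannot reach a p of 0.05.

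Ccr2 itself was low in the members of both genotypes. Its level was 0.122 and 0.095 in CCR2+/- and 0.11 and 0.0785 in CCR2-/- members, and a count was found in 8.74%, 7.12%, 8.33% and 6.02% of cells. That share was 8.10% in the other cells of cluster 1, at a median of 10184 UMIs, 4.77% in cluster 0, at 1563, and 40.3% in cluster 3, at 11874. Cluster 3, whose cells carry Mrc1 and class II genes, served as the check of the genotype: Ccr2 stood there at 2.66 and 3.16 in CCR2+/- and at 0.29 and 0.47 in CCR2-/- cells. Both CCR2-/- samples were far below both CCR2+/- samples there. The reporter RFP was found in 4 of 985 members (0.406%, exact interval 0.111 to 1.04%) at a median depth of 9998 UMIs. It was found in 50.3% of cluster 3 cells at 11874 UMIs and in 64.1% of cluster 4 cells at 6700.5 UMIs.

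Comparing CCR2-/- with CCR2+/- members gene by gene, 77 of 10425 genes tested passed limma at a Benjamini-Hochberg adjusted p of 0.05, which is 0.739% of the genes tested. Of these, 40 rose in CCR2-/- members (0.384%) and 37 fell (0.355%). The 40 include Il1a, Tnf and Ccl12 of the score, whose calls in members rest on values that the choice of cells trimmed and are not used as results. Among those that rose were 7 heat shock chaperones, 6 chaperones of the endoplasmic reticulum and 6 cytokine genes or NF-kB targets outside the score. Among those that fell were 4 targets of the glucocorticoid receptor and 2 cold-inducible RNA-binding proteins. Over all genes tested the median log2 difference was -0.04 and 43.4% of genes were higher in CCR2-/-. The samples of the genotypes did not overlap for 3958 genes, 38% of those tested, and for 74 of the 77 called genes. Differences are log2, CCR2-/- minus CCR2+/-, with the standard error of the fit over 2 samples per genotype.

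The count of calls depended on how the spread was estimated, on the CD45-high cells and on single samples. With 1 common spread in place of a trend with expression, limma called 0 genes (730 at an unadjusted p of 0.05, against 912 with the trend). Without the 33 CD45-high members it called 23, all of them among the 77, and all 77 kept their direction with a median shift of 0.02. Of the called genes described here, Il1b, Cxcl2, Tnfaip2, Dusp2, Maff, Gbp5, Gadd45b, Hspa8, Hsp90ab1, Hsph1, Hspa5, St13, Tsc22d3, Mt1, Cirbp, Jdp2 and Ccnd3 passed in that fit. The others did not, with limma adjusted p from 0.0519 for Rgs1 to 0.605 for Hspb1. Leaving out 1 sample gave 33 genes when CCR2+/- sample 1 was dropped, 145 when CCR2-/- sample 1 was and 134 when CCR2-/- sample 2 was. In all 4 fits without 1 sample 14 genes passed, among them Cxcl2, Il1b, Tnfaip2, Dusp2, Maff, Hsph1, Hspa8 and Hsp90ab1, which rose, and Cirbp, Tsc22d3, Mt1 and Rgs1, which fell.

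**Figure D3:**
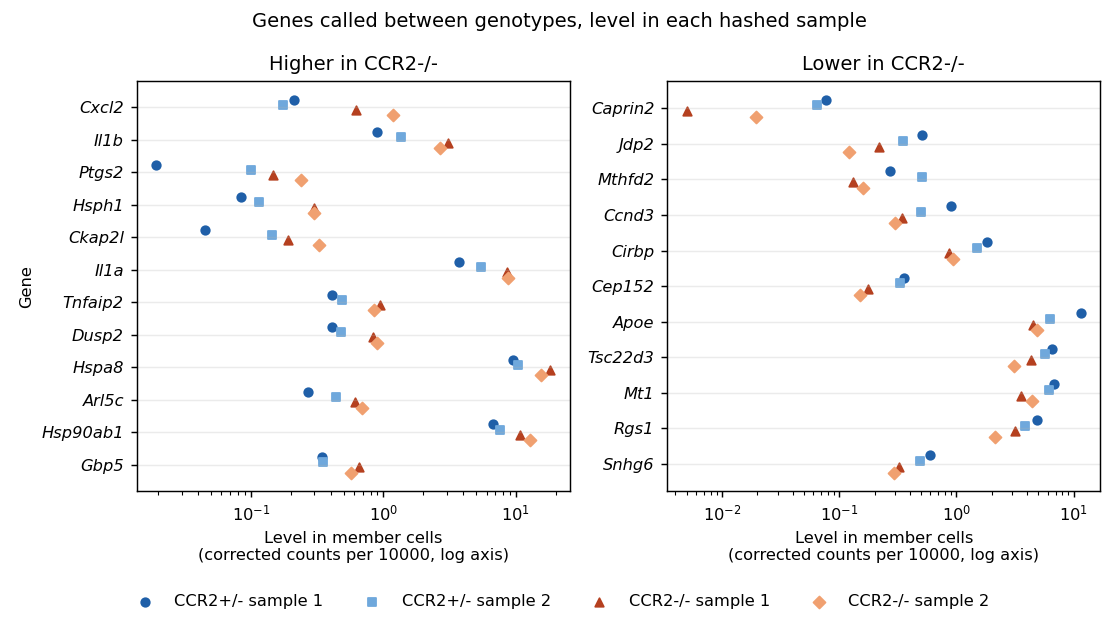
Level in members (corrected counts per 10000, log axis) of 12 higher and 11 lower called genes named by rank, 1 symbol per hashed sample. Il1a is a gene of the score. For all 23 genes both CCR2-/- samples lie on 1 side of both CCR2+/- samples, which was a condition for choosing them. The same held for 38% of all genes tested. Caprin2 in CCR2-/- sample 1 is at 0 and is drawn at the left edge.

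The genes that define microglia were nearly all uncalled, as were genes in general, of which 0.739% were called. Of 30 homeostatic genes tested, 13 were higher and 17 lower in CCR2-/- members, 1 fell and 0 rose, with a median of -0.01 against -0.04 for all genes. Tmem119 differed by -0.05 ± 0.10 (95% interval -0.25 to 0.15), P2ry12 by -0.01 ± 0.10 (-0.22 to 0.20) and Cx3cr1 by 0.02 ± 0.11 (-0.21 to 0.25), with limma adjusted p of 0.947, 0.995 and 0.988. The gene that fell was Crybb1, at 5.49 and 4.90 in CCR2+/- and 3.60 and 4.2 in CCR2-/- members, a log2 difference of -0.41 ± 0.10 (limma adjusted p = 0.0344). It did not pass when sample 1 of either genotype was left out, with values of -0.52 to -0.30 over the fits that left out 1 sample.

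Genes of the lysosome and of complement gave no call. C1qa stood at 73.3, 71.3, 67.0 and 75.4. Cst3 stood at 457 and 446 against 536 and 587, a difference of 0.31 ± 0.20 that was not called (limma adjusted p = 0.714). With every cell thinned to 1000 corrected counts, Cst3 differed by 0.33 and was called (limma adjusted p = 0.00330). Of 12 complement genes and 31 genes of lysosome and phagocytosis, 0 were called in either direction, with medians of 0.01 and -0.02. Of all genes tested 0.739% were called, so 0 calls in lists of this size do not set these genes apart.

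The regulators of microglia identity gave no call either, which with 0.739% of all genes called does not set them apart. In the list of 14 transcription factors 3 were higher and 11 lower, 0 were called and the median was -0.11. Spi1, which encodes the myeloid factor PU.1, differed by 0.01 and Irf8 by -0.00. Of 11 genes of the TGF-beta response 0 were called, and the receptor gene Tgfbr1 stood at 7.12 and 7.01 against 6.41 and 5.88.

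Among 23 receptors with which microglia sense their surroundings, 2 rose and 2 fell, with a median of -0.02. Gpr84 rose from 2.51 and 4.31 to 4.97 and 6.21, by 0.75 ± 0.14 (limma adjusted p = 0.00122). Cd14, the co-receptor for bacterial lipopolysaccharide, rose from 5.09 and 4.96 to 6.63 and 6.69, by 0.40 ± 0.10 (limma adjusted p = 0.0275). Both were higher in each CCR2-/- sample. Tlr7, a receptor for single-stranded RNA, fell from 1.96 and 1.54 to 1.23 and 1.26, by 0.48 ± 0.12 (limma adjusted p = 0.0411). Havcr2, which encodes the checkpoint receptor TIM-3, fell from 2.00 and 1.64 to 1.33 and 1.25, by 0.49 ± 0.12 (limma adjusted p = 0.0290). All 4 lost the call without CCR2+/- sample 1, where CCR2+/- sample 2 stood alone. Their values over the fits without 1 sample ran from 0.36 to 1.14 for Gpr84, 0.39 to 0.42 for Cd14, -0.65 to -0.30 for Tlr7 and -0.63 to -0.35 for Havcr2. Cd14 also lost it without CCR2+/- sample 2 and Havcr2 without CCR2-/- sample 2.

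Il1b and Cxcl2 had the lowest adjusted p of all genes tested. Of 30 other cytokine genes and NF-kB targets tested, 22 were higher and 8 lower, 6 rose and 0 fell, with a median of 0.20 against -0.04 for all genes. The list was chosen with earlier results of these data known, and 0.384% of all genes tested rose. Il1b, which encodes interleukin 1 beta, stood at 0.888 and 1.35 in CCR2+/- and at 3.09 and 2.67 in CCR2-/- members, a rise of 1.38 ± 0.13 or 2.61 times (limma adjusted p = 3.25e-09). Cxcl2, a neutrophil-attracting chemokine, stood at 0.212 and 0.175 against 0.616 and 1.19, a rise of 2.12 ± 0.20 or 4.34 times (limma adjusted p = 3.45e-09). The CCR2-/- samples lay above both CCR2+/- samples for each gene, and each passed in all 4 fits without 1 sample.

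Il1b was found in 23.3% and 31.5% of CCR2+/- and in 38.3% and 33.1% of CCR2-/- members. Without the 5 cells of each sample that held most Il1b, its level was 0.40 and 0.94 against 1.73 and 1.93, and the genotypes still did not overlap. Cxcl2 was found in 15 and 23 CCR2+/- cells and in 19 and 47 CCR2-/- cells. The 5 highest cells held 69.7% of its counts in CCR2+/- sample 1, 79.8% in CCR2-/- sample 1 and 41.7% in CCR2-/- sample 2, and without them the level was 0.07 and 0.11 against 0.13 and 0.70. In CCR2-/- sample 1 the Cxcl2 level therefore came mainly from 5 cells.

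The other 4 called genes of this list were less steep or rarer. Tnfaip2, a TNF-induced gene, stood at 0.412 and 0.49 against 0.939 and 0.844, a rise of 0.98 ± 0.15 (limma adjusted p = 8.95e-05) that held in all 4 fits without 1 sample. Ptgs2, the inducible cyclooxygenase of prostaglandin synthesis, stood at 0.0193 and 0.10 against 0.147 and 0.240, a rise of 1.92 ± 0.43 (limma adjusted p = 0.0141). It rested on 3, 11, 11 and 21 cells with a count, and it lost the call without CCR2+/- sample 1 or CCR2-/- sample 2, with values of 0.87 to 2.96. Cd83, an activation marker, stood at 8.53 and 11.9 against 13.9 and 13.7, a rise of 0.46 ± 0.11 (limma adjusted p = 0.0324) that was lost without CCR2+/- sample 1, with values of 0.22 to 0.70. Gpr84, given above, was the fourth.

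Several regulators of NF-kB in the same list were not called. Nfkbiz stood at 12.4 and 13.2 against 16.3 and 14.5 (0.26 ± 0.10, limma adjusted p = 0.364), and Tnfaip3, which encodes the inhibitor A20, at 8.41 and 8.90 against 10.6 and 10.3 (0.27 ± 0.10, limma adjusted p = 0.294). The adhesion gene Icam1 stood at 6.68 and 8.39 against 9.20 and 10.6 (0.40 ± 0.11, limma adjusted p = 0.0634). Nfkbid, an atypical inhibitor outside the list, rose by 0.54 ± 0.13 (limma adjusted p = 0.0404) but not when sample 1 of either genotype was left out, with values of 0.23 to 0.85. Cxcl10, an interferon-induced chemokine, stood at 0.914 and 1.56 against 0.792 and 1.79 and differed by -0.00 ± 0.20 (limma adjusted p = 0.998). Its samples overlapped, and its value turned with the sample left out, from -0.59 to 0.58.

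Interferon genes gave 2 calls, both in the interferon gamma response. Over all genes tested 0.739% were called. Of 20 genes of the type I response 8 were higher and 12 lower and 0 were called, with a median of -0.05. Of 10 genes of the interferon gamma response 5 were higher and 2 rose. Gbp5, a guanylate-binding protein, stood at 0.341 and 0.35 against 0.653 and 0.573, a rise of 0.81 ± 0.17 (limma adjusted p = 0.00518). The transcription factor Irf1 stood at 1.65 and 1.81 against 2.24 and 2.42, a rise of 0.43 ± 0.11 (limma adjusted p = 0.0414). Gbp5 lost the call without CCR2-/- sample 1, with values of 0.72 to 0.91, and Irf1 passed only without CCR2-/- sample 1, with values of 0.36 to 0.49. Of 13 class I and 7 class II antigen presentation genes 0 were called, which at that share of all genes does not set them apart.

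Of 24 immediate early genes tested, which tissue dissociation is known to induce, 10 were higher and 14 lower, 3 rose and 0 fell, with a median of -0.07. For comparison, the share of rising genes in the whole test was 0.384%. Earlier results of these data were known when this list was chosen, so its counts are a description. Fos stood at 86.6 and 76.2 against 78.5 and 70.8 and Jun at 116 and 115 against 109 and 96.5, and neither was called. The genes that rose were Dusp2, a phosphatase that switches off MAP kinases, the zinc finger gene Egr3, and Gadd45b, a stress sensor. Dusp2 stood at 0.412 and 0.475 against 0.829 and 0.888 (0.95 ± 0.15, limma adjusted p = 0.000142) and passed in all 4 fits without 1 sample. Egr3 rose by 0.87 ± 0.21 (limma adjusted p = 0.0290) and Gadd45b by 0.60 ± 0.11 (limma adjusted p = 0.00167). Both lost the call without CCR2+/- sample 1, with values of 0.52 to 1.22 and of 0.42 to 0.78, and Egr3 also without CCR2-/- sample 1.

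All 19 heat shock chaperones tested were higher in CCR2-/- members, 7 rose, and the median was 0.42 against -0.04 for all genes (0.47 with thinned cells, where 2 were called). Of all genes tested 0.384% rose. The lists were chosen with earlier results of these data known, so counts within a list are a description. Hspa8, the constitutive Hsp70 that folds new proteins and strips clathrin coats, stood at 9.46 and 10.4 in CCR2+/- and at 18.2 and 15.4 in CCR2-/- members, a rise of 0.75 ± 0.10 (limma adjusted p = 1.87e-05). Hsp90ab1, the constitutive Hsp90, stood at 6.73 and 7.53 against 10.7 and 12.8, a rise of 0.71 ± 0.10 (limma adjusted p = 3.99e-05). Hsph1, a nucleotide exchange factor of Hsp70, stood at 0.0837 and 0.115 against 0.301 and 0.298, a rise of 1.56 ± 0.27 (limma adjusted p = 0.000627). Both CCR2-/- samples lay above both CCR2+/- samples for all 3 genes, and the 3 calls held in every fit without 1 sample.

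Hspa8 was found in 99.0% to 100% of members of each sample, and its 5 highest cells held 5.0% to 10.1% of its counts. Without them it stood at 8.71 and 9.86 against 17.1 and 14.9. With every cell thinned to 1000 corrected counts the difference was 0.76, close to that without thinning.

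The remaining called chaperones were less firm. Stip1, which links Hsp70 to Hsp90, rose by 0.83 ± 0.19 (limma adjusted p = 0.0141), with values of 0.72 to 0.94 over the fits without 1 sample, and lost the call without CCR2+/- sample 2 or CCR2-/- sample 2. Dnaja1, a co-chaperone, rose by 0.42 ± 0.11 (limma adjusted p = 0.0414), with values of 0.36 to 0.48, and passed only without CCR2-/- sample 2. The stress-inducible Hspa1a stood at 1.35, 1.93, 3.09 and 1.92 and the small heat shock gene Hspb1 at 0.129, 0.39, 0.851 and 0.322. Both were called (0.59 ± 0.14, limma adjusted p = 0.0321, and 1.20 ± 0.30, limma adjusted p = 0.0368) although the genotypes overlapped and CCR2-/- sample 1 alone was high. Without that sample or without CCR2+/- sample 1 neither passed, with values of 0.25 to 0.93 and of 0.42 to 1.98. Hsp90aa1 and Dnajb1, at 0.33 ± 0.10 and 0.47 ± 0.12, were not called (limma adjusted p = 0.176 and 0.0634).

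Chaperones of the endoplasmic reticulum were also mostly higher. Of 17 tested, 16 were higher and 1 lower, 6 rose and 0 fell, with a median of 0.27, and of 0.41 with thinned cells, where 0 were called. This list too was chosen with earlier results of these data known, and 0.384% of all genes tested rose. Hspa5, the lumenal Hsp70 known as BiP, stood at 10.6 and 11.3 in CCR2+/- and at 16.6 and 15.05 in CCR2-/- members, a rise of 0.53 ± 0.10 (limma adjusted p = 0.00241). The calcium-binding chaperone Calr stood at 4.09 and 5.04 against 6.17 and 7.12 (0.54 ± 0.10, limma adjusted p = 0.00295), and Hsp90b1, the lumenal Hsp90, at 4.32 and 4.89 against 5.96 and 7.25 (0.52 ± 0.10, limma adjusted p = 0.00463). No sample of 1 genotype overlapped the other for these 3 genes. Creld2, Sdf2l1 and Manf, induced by unfolded proteins, rose by 0.84 ± 0.20, 0.64 ± 0.15 and 0.44 ± 0.11. All 6 calls were lost without CCR2+/- sample 1. Over the fits without 1 sample the values ran from 0.46 to 0.60 for Hspa5, 0.39 to 0.70 for Calr, 0.37 to 0.66 for Hsp90b1, 0.63 to 1.06 for Creld2, 0.27 to 1.01 for Sdf2l1 and 0.35 to 0.53 for Manf, and all but Hspa5 and Calr were also lost without CCR2-/- sample 2.

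The promoters of the called chaperones were searched for the motifs of the 2 responses, in the 250 bases before each gene start, from RefSeq on GRCm38.p6. The heat shock element was taken as GAANNTTC or TTCNNGAA, each of which reads the same on both strands. It was found in 4218 of 32851 promoters of the same length (12.8%), in 9 of the 16 heat shock genes with an entry, and in 4 of the 5 called ones with an entry, namely Hsph1, Hspa1a, Hspb1 and Dnaja1. Stip1 had an entry and no match, and Hspa8 and Hsp90ab1 had no entry. The endoplasmic reticulum stress element was taken as CCAAT, 9 bases of any kind and CCACG, on either strand. It was found in 37 promoters (0.113%), in 6 of 15 endoplasmic reticulum chaperones with an entry and in 4 of the 5 called ones, namely Hspa5, Hsp90b1, Calr and Creld2. Neither motif was found in a promoter of the other list. The promoters of 3 genes are printed from 5′ to 3′ on the strand of the gene, with the matched bases in capitals, because these genes rose in CCR2-/- members and show each motif. Hsph1 has 2 listed starts with the same match, and the window of 1 is printed:
Hsph1, chr5:149636337-149636586, minus strand: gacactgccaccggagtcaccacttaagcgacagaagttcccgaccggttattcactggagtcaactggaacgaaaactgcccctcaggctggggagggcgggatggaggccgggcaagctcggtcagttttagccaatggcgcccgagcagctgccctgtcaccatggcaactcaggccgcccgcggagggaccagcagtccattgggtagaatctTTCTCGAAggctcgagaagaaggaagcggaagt
Hspa5, chr2:34771840-34772089, plus strand: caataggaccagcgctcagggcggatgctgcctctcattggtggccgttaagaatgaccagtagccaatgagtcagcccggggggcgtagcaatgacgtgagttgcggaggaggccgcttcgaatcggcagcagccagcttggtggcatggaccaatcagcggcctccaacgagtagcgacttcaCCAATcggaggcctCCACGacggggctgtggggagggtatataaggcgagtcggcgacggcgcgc
Hsp90b1, chr10:86705445-86705694, minus strand: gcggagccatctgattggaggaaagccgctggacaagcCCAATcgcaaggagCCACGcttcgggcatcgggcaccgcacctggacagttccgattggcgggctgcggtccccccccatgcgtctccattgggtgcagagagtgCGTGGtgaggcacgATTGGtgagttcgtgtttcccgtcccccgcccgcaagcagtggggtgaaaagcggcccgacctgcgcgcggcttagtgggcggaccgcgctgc
Hspa5 held 1 copy and Hsp90b1 held 2, 1 on each strand. These are matches of letters and were not measured as binding sites.

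Of 13 targets of the glucocorticoid receptor tested, 12 were lower and 1 higher, 4 fell and 0 rose, with a median of -0.63 against -0.04 for all genes. This list too was chosen with earlier results of these data known, and 0.355% of all genes tested fell. The median was -0.28 with thinned cells, where 1 of them was called, and -0.40 with at least 100 corrected counts. Tsc22d3, the glucocorticoid-induced leucine zipper that restrains inflammation, fell from 6.53 and 5.69 in CCR2+/- to 4.31 and 3.09 in CCR2-/- members, by 0.74 ± 0.11 (limma adjusted p = 9.37e-05). Mt1, a metal-binding metallothionein, fell from 6.8 and 6.10 to 3.52 and 4.41, by 0.71 ± 0.10 (limma adjusted p = 6.18e-05). Both stayed called whichever sample was left out. Sult1a1, a sulfotransferase, fell from 1.16 and 0.795 to 0.623 and 0.534, by 0.73 ± 0.15 (limma adjusted p = 0.00640). Fkbp5, a co-chaperone of the receptor, stood at 1.22, 0.475, 0.477 and 0.232, and was called at -1.18 ± 0.25 (limma adjusted p = 0.00640) although CCR2+/- sample 2 and CCR2-/- sample 1 were level. CCR2+/- sample 1 was the high one, and without it Fkbp5 and Sult1a1 lost the call, with values of -1.85 to -0.51 and of -0.999 to -0.46 over the fits. Sgk1 and Dusp1, further targets, differed by -0.23 and -0.20 and were not called.

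Cirbp, a cold-inducible RNA-binding protein, fell from 1.82 and 1.5 to 0.858 and 0.939, by 0.88 ± 0.12 (limma adjusted p = 2.61e-05), in every fit without 1 sample. Rbm3, the other cold-induced member of the pair, fell from 4.06 and 3.62 to 3.04 and 2.33, by 0.53 ± 0.11 (limma adjusted p = 0.00649), and lost the call without CCR2+/- sample 1 or CCR2-/- sample 2, with values of -0.72 to -0.34. In the full list of 15 genes 6 were higher and 9 lower, 2 fell and the median was -0.17. Over all genes tested 0.355% fell. Per1, a clock gene that glucocorticoids also induce, stood at 1.43 and 1.07 against 0.939 and 0.946 and was not called (limma adjusted p = 0.225).

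**Figure D4:**
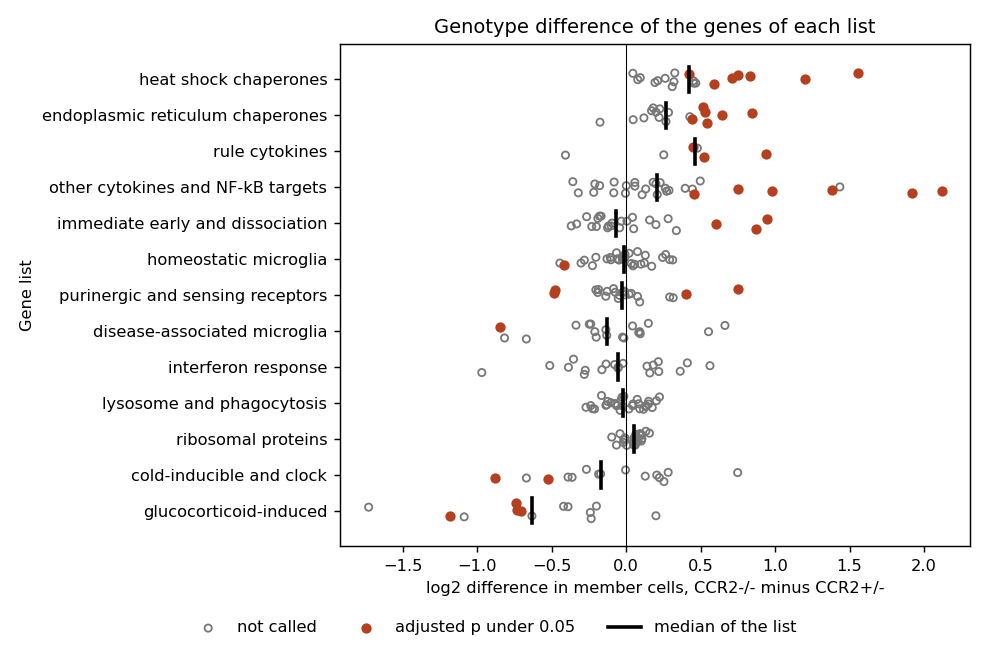
Log2 difference between CCR2-/- and CCR2+/- members (horizontal axis) of each gene tested in 13 lists (vertical axis); filled points passed limma at an adjusted p of 0.05, open points did not, and the bar is the median. All 19 heat shock points lie above 0 and 12 of 13 glucocorticoid points below it, while ribosomal and lysosomal genes lie around 0. The lists were chosen with earlier results of these data known.

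Apoe, a lipid carrier that marks disease-associated microglia, was called but carried by few cells. It stood at 11.5 and 6.23 in CCR2+/- and 4.53 and 4.89 in CCR2-/- members, a fall of 0.85 ± 0.14 (limma adjusted p = 0.000271). The 5 highest cells held 68.5% of its counts in CCR2+/- sample 1, where 1 cell alone had 646, and 26.0% to 42.6% in the other samples. Without the 5 highest cells of each sample the levels were 3.71 and 4.07 against 2.67 and 3.67, and the call was lost without CCR2+/- sample 1, with values of -1.29 to -0.41. It was also lost in the fit without CD45-high members (-0.70, limma adjusted p = 0.201). Of the 19 disease-associated genes tested, 7 were higher and 12 lower and Apoe was the single one called, with a median of -0.13.

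Several genes that fell were named by rank. Rgs1, which dampens chemokine receptor signalling, fell from 4.89 and 3.82 to 3.12 and 2.12, by 0.75 ± 0.12 (limma adjusted p = 0.000339). It held in all 4 fits without 1 sample. The AP-1 repressor Jdp2 fell by 1.34 ± 0.24 (limma adjusted p = 0.00118) and the cyclin gene Ccnd3 by 1.05 ± 0.19 (limma adjusted p = 0.00124), but neither without CCR2+/- sample 1, with values of -1.75 to -0.92 and of -1.46 to -0.63. Caprin2 stood at 0.0773, 0.065, 0 and 0.0196 and was called at -2.72 ± 0.69 (limma adjusted p = 0.0414) and passed in 1 of the 4 fits without 1 sample, the one without CCR2-/- sample 2, with values of -3.66 to -1.63.

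Phgdh and Mars are named after their values were seen. Mthfd2, the mitochondrial folate enzyme, stood at 0.27 and 0.505 against 0.132 and 0.161 (-1.31 ± 0.25, limma adjusted p = 0.00251), and lost the call without CCR2+/- sample 2, with values of -1.76 to -0.87. Phgdh, the entry enzyme of serine synthesis, fell from 1.56 and 1.62 to 1.18 and 0.958, by 0.58 ± 0.12 (limma adjusted p = 0.00640). The methionyl-tRNA synthetase gene Mars fell by 0.73 ± 0.17 (limma adjusted p = 0.0171). Phgdh lost the call without CCR2-/- sample 2, with values of -0.73 to -0.43, and Mars without CCR2+/- sample 2, with values of -0.90 to -0.57.

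Metabolic and translation genes gave 0 calls among 24 ribosomal, 24 oxidative phosphorylation and 16 glycolysis and hypoxia genes tested. Their medians were 0.05, -0.03 and -0.06. With 0.739% of all genes tested called, 0 calls do not set these lists apart. At an unadjusted p of 0.05, 912 of all genes tested passed limma, and the alternative without the trend called 0 genes of any kind. Gapdh, a glycolytic enzyme, stood at 4.69, 4.82, 4.77 and 4.65. Csf1r, the survival receptor of microglia, stood at 29.2, 29.4, 29.2 and 30.8. Its samples overlapped between the genotypes, with a difference of 0.03 (95% interval -0.19 to 0.25).

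The genotype difference of the members was then set against that of the neighbouring classes in 1 model, with the hashed sample as a block and a term for class by genotype. Against the other cells of cluster 1, 3 of 8112 genes passed limma (0.037%), namely Cxcl2, Dusp2 and Tnf, the last a gene of the score that separates these classes and so not used as a result. Against cluster 0, 0 of 9356 genes passed (0%), with 435 at an unadjusted p of 0.05. Against cluster 3, 2 of 6700 passed (0.0299%), namely Cxcl2 and Il1b. The heat shock and glucocorticoid genes were not among the calls, and no difference between the classes was shown for them.

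The genotype difference of Hspa8 was 0.74 in the other cells of cluster 1, 0.19 in cluster 0 and 0.21 in cluster 3, and in members it exceeded that of cluster 0 by 0.56 ± 0.11 (limma adjusted p = 0.933). Tsc22d3 differed by -0.82, -0.42 and -0.89 in these classes. Cirbp differed by -0.57, -0.12 and -0.85, and Il1a, a gene of the score, by 0.46, 0.56 and -0.20. The other cells of cluster 1 went the same way as the members for all 4 genes.

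Cxcl2 went the opposite way in the other cells of cluster 1, where it stood at 0.714 and 1.55 in CCR2+/- and at 0.412 and 0.326 in CCR2-/- cells. There it was found in 4, 9, 6 and 10 cells, and the 5 highest held 72.2% to 100% of its counts. Without the 5 highest cells of each sample it stood at 0 and 0.113 against 0.0237 and 0.0969, and the genotypes overlapped. In cluster 3 it stood at 31.3 and 15.5 against 15.3 and 23.4, with the genotypes overlapping. Dusp2 stood at 1.39 and 1.45 in CCR2+/- and at 0.456 and 1.12 in CCR2-/- cells of the rest of cluster 1. The 5 highest cells held 80.3% and 80.7% of its counts in the CCR2+/- samples there, and without the 5 highest cells of each sample it stood at 0.297 and 0.310 against 0.285 and 0.565. In cluster 3, Il1b stood at 16.5 and 20.1 against 19.2 and 14.5, also overlapping, and in the other cells of cluster 1 at 2.56 and 3.30 against 5.51 and 3.20.

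**Figure D5:**
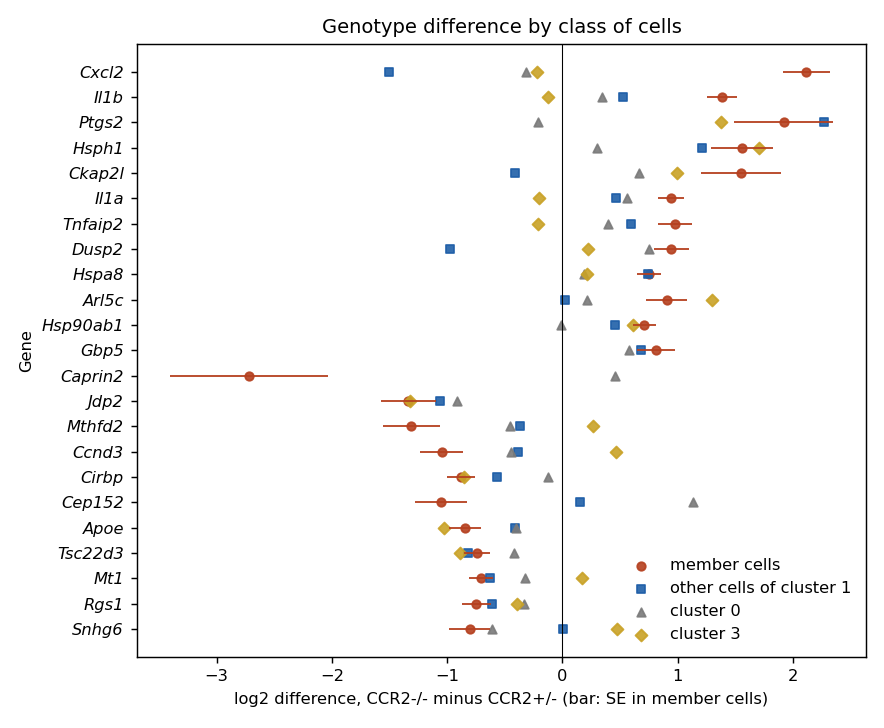
Log2 difference between CCR2-/- and CCR2+/- samples (horizontal axis) of the 23 genes of the plot of levels by sample, in members (circles, bar: SE), the other cells of cluster 1 (squares), cluster 0 (triangles) and cluster 3 (diamonds). Il1a is a gene of the score. Cxcl2 and Dusp2 lie on opposite sides of 0 in members and in the other cells of cluster 1; a class in which a gene had too few counts has no symbol.

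Among themselves the members varied most in Apoe, the nuclear RNA Malat1 and Cst3. The Fano factor, the variance over cells divided by the mean after each cell was thinned to 1000 corrected counts, was 16.5 for Apoe, 9.46 for Malat1 and 9.34 for Cst3. Its median over 639 genes with a mean of at least 0.2 was 1.07 and its 95th percentile 2.08. Apoe owed its value to CCR2+/- sample 1, with 37.9 there and 4.36 to 6.12 in the others. The protease gene Adamts1 (4.41), the histone gene H3f3b (3.84), the flow-responsive factor Klf2 (3.49), Il1b (3.17), the stress factor Atf3 (3.06) and Cited2 (2.64) followed, together with Ccl4 and Ccl3 of the score. The identity genes were close to the median: 1.11 for Tmem119, 1.30 for P2ry12, 1.31 for Cx3cr1 and 1.07 for Csf1r. Klf2 ran from 2.91 per 10000 at the 10th percentile of cells to 30.7 at the median, and Tmem119 from 4.91 to 9.97.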

How the data were processed

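Single-cell RNA of brain from 2 CCR2+/- and 2 CCR2-/- hashed samples was used. The submitters' processing notes name Cell Ranger 3.1 and the mm10 build; other steps are not given in the sources used here. The authors deposited natural log (ln) values of 1 plus an SCTransform-corrected count. Back-transformed values were whole to within 2.18e-11 and summed to the deposited total counts in all 5208 cells. UMI, antibody and hashtag counts per cell, cluster numbers and antibody gates (other labels) came from the authors' deposited cell descriptions. The hashtag margin, a score of the authors deposited with each cell, entered no result.

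Raw counts per gene were not used here, so no count model was run. Corrected counts of the members were summed per sample, scaled to the mean total and tested with limma 3.58.1 in R 4.3.3 on log2 values (pseudocount 1, spread fitted as a trend on expression), for the 10425 genes that reached 20 corrected counts; fold changes are on this scale, which understates low genes. Adjustment was Benjamini-Hochberg at 0.05 over all genes tested. Python 3.11.15 with pandas 2.3.3 and scipy 1.17.1 did the rest. The test was checked before use on data simulated with the same variation between samples for every gene beyond counting error. That check does not cover genes carried by few cells or the choice of the trend. Intervals of shares of cells are exact (Clopper-Pearson, 95%) and cover counting error only. Those of log2 differences are 95% intervals of the limma fit over samples.

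Members and lists were chosen with earlier results of these data known. Named genes were up to 12 higher and 12 lower called genes, without overlap between genotypes, with the largest 95% bound nearest 0 (ribosomal, mitochondrial, immunoglobulin, T cell receptor, Gm and Rik genes left out), the markers, Ccr2, Cxcl10, the 6 cytokines, and up to 5 genes per list or those called; for clusters, the 12 largest ratios; for variation, the 12 largest Fano factors. Nfkbid, Maff, Phgdh, Mars, St13 and Hspa1b were named after their values were seen. Alternatives were other pseudocounts (0.5 and 5), count minimums (100 or none), median-of-ratios scaling, mean ln values, thinning to 1000 corrected counts, all deposited cells, the whole cluster, its bottom 60%, limma without the trend, leaving out each sample and, added after seeing the data, leaving out CD45-high members. No doublet caller was run. The hashtag filter sets brain tags against blood tags only, so a doublet of brain samples, also across the genotypes, can pass it. Results for some genes are not reported here.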

Additional observations from a re-analysis of the deposited data

Results flagged for a closer look

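In 4 instances, besides a gene of the score, the genotype difference of the members departed from that of a neighbouring class by a test of the difference itself, in limma with the hashed sample as a block. Against the other cells of cluster 1, Cxcl2 differed by 3.60 ± 0.39 (log2; 2.10 in members, -1.50 in the other cells; limma adjusted p = 5.78e-07; 2.91 to 4.29 and past the threshold in all 4 fits without 1 sample). The mitogen-activated kinase phosphatase gene Dusp2 differed by 1.92 ± 0.29 (0.94 and -0.98; limma adjusted p = 0.000763; 1.33 to 2.51, in 3 of 4 fits). In the other cells of cluster 1, without the 5 cells of each sample with most Dusp2, its level was 0.297 and 0.310 in CCR2+/- and 0.285 and 0.565 in CCR2-/-, and the genotypes overlapped. The genotypes also overlapped there for Cxcl2 without its 5 highest cells of each sample. Its level was then 0 and 0.113 in CCR2+/- and 0.0237 and 0.0969 in CCR2-/-. Tnf, a gene of the score that separates the 2 classes, differed by 0.855 (0.52 and -0.33), a description with no test, since the choice of cells used its values.

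Against cluster 3, Cxcl2 differed by 2.32 ± 0.27 (2.10 and -0.22; limma adjusted p = 0.0177; 1.95 to 2.69, in 4 of 4 fits). Il1b differed by 1.51 ± 0.20 (1.38 and -0.13; limma adjusted p = 0.0420; 1.35 to 1.66, in 3 of 4 fits). With a minimum of 100 corrected counts per class, 0 genes passed against cluster 3.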

How the results depend on the processing

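The 77 calls became 121 with no count minimum, 49 with median-of-ratios scaling, 38 with all deposited cells, 13 with the bottom 60% of the cluster, 23 without CD45-high members, 6 with thinned cells (of 6319 genes tested: Cst3, Hsp90ab1, Hspa8, Il1b, Mt1 and Il1a, a gene of the score) and 0 without the trend (730 at an unadjusted p of 0.05); the cause was not tested, except that thinning and the bottom 60% hold fewer counts. The fits without 1 sample gave 33 to 145 calls, and assume that the lone sample of a genotype varies like the other genotype's. Over 1221 values of the 77 genes under these alternatives 745 kept their call, 476 lost it and 0 changed direction. Past the threshold in every alternative but thinning and the fit without the trend were Cirbp, Cxcl2, Hsp90ab1, Hspa8, Hsph1, Il1b, Mt1 and Tnfaip2, and Il1a of the score, which is not used as a result.

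Differences of uncalled genes near 0 changed sign. Tmem119 was 0.0046 in the whole cluster. P2ry12 was 0.036 with median-of-ratios scaling, 0.037 with mean ln values, 0.018 with all deposited cells, 0.023 in the whole cluster and -0.063 to 0.048 without 1 sample. Cxcl10 was 0.039, 0.11, 0.012 and 0.59 with median-of-ratios scaling, mean ln values, the whole cluster and its bottom 60%, and -0.59 to 0.58 without 1 sample, both ends called, without CCR2-/- sample 2 (limma adjusted p = 0.0107) and without CCR2-/- sample 1 (limma adjusted p = 0.00355). Without 1 sample Cx3cr1 ran from -0.059 to 0.099, Ccr2 from -0.43 to 0.027 and Ccl2 from -0.0033 to 0.96.

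Between classes, fits without 1 sample gave 8 to 18 calls against the other cells of cluster 1, 0 to 3 against cluster 0 and 4 to 87 against cluster 3, where a minimum of 100 counts gave 0. For the share of member cells among clear brain cells, per hashed sample and genotype, the difference of -0.290 points ran from -1.94 to 0.595 with other choices of cells and from -7.23 to 6.65 without 1 sample, against an SD of 9.82 between the CCR2+/- samples. No paired analysis was possible because the hashtag numbers are not shared between the genotypes, so the planned replicate block was not run. Genes below 20 corrected counts over all members were beyond the depth of the test.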

Other observations

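Beyond the chaperones of the list, St13, a co-chaperone that binds Hsp70, stood at 1.38 and 1.41 in CCR2+/- and at 1.98 and 2.14 in CCR2-/- members. The rise was 0.56 ± 0.11 (limma adjusted p = 0.00395). Its call was lost without CCR2+/- sample 1, with values of 0.50 to 0.61 over the fits without 1 sample. The inducible Hspa1b stood at 0.142, 0.12, 0.264 and 0.0864, with the genotypes overlapping, and differed by 0.21 ± 0.34 (limma adjusted p = 0.925). St13 was chosen after its values were seen.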
